A study of Mus musculus with 12 samples.

Results

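The genes described here belong to the handling of sodium, calcium and magnesium in the distal tubule of the kidney. They are 10 of the 55487 genes in the deposited table: Slc12a3, Wnk1, Wnk4, Klhl3, Pvalb, Trpm6, Trpv5, Calb1, S100g and Slc8a1. These were chosen by symbol for their known roles, but with earlier results of these data known. They were measured by messenger RNA sequencing of whole kidneys from male mice with X-linked Alport syndrome, a disease of the type IV collagen of the glomerular basement membrane. The fisetin group (n = 6 libraries) had eaten a diet with 500 ppm of fisetin, a plant flavonol, and the control group (n = 6) a control diet. All mice were of the B6 background and 30 weeks old, and all carried the disease: the titles give Col4a5 for both groups, with a genotype field of HET although the mice are described as male. No healthy kidney was used here. Each of the 2 labelled batches held 3 libraries of each diet. Library totals ran from 16310214 to 24451821 counts with fisetin and from 18638748 to 22396857 with the control diet. Nothing in the labels ties a library to an animal of its own, so the p-values speak only for the spread among these 12 libraries, part of which may be technical.

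The distal convoluted tubule reabsorbs sodium chloride through the thiazide-sensitive cotransporter NCC, encoded by Slc12a3. The kinases WNK1 and WNK4 switch the cotransporter on through SPAK and OSR1, and KLHL3, the adaptor of a cullin ubiquitin ligase, marks the WNK kinases for degradation. The same segment takes up magnesium through the channel TRPM6. Further on, in the late distal convoluted and connecting tubule, calcium enters through the channel TRPV5, is carried across the cell by calbindin-D28k (Calb1) and calbindin-D9k (S100g), and leaves through the sodium-calcium exchanger NCX1 (Slc8a1). Parvalbumin (Pvalb) is a calcium-binding protein of the early distal convoluted tubule in mouse.

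The stretches before the start sites of 5 of these genes are shown because their levels behaved differently below: Slc12a3 varied most among the tested members, Trpv5 and S100g belong to the calcium genes, Trpm6 went the other way, and Wnk1 hardly varied. Each is the 250 bases before the RefSeq start on GRCm38.p6, read 5′ to 3′ on the gene's own strand. They lie at chr8:94328958-94329207 (plus strand, Slc12a3), chr6:41680724-41680973 (minus strand, Trpv5), chrX:162964600-162964849 (minus strand, S100g), chr19:18749480-18749729 (plus strand, Trpm6) and chr6:120038656-120038905 (minus strand, Wnk1). Capitals mark matches to TATAAA, the core of the TATA box, and to AGGTCA, a half-site that nuclear receptors can bind, each searched on both strands.
Slc12a3: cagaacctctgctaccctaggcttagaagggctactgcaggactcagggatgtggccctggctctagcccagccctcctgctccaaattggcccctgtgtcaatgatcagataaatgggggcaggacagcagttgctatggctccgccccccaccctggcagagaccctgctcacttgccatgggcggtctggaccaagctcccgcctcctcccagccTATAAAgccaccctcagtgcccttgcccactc
Trpv5: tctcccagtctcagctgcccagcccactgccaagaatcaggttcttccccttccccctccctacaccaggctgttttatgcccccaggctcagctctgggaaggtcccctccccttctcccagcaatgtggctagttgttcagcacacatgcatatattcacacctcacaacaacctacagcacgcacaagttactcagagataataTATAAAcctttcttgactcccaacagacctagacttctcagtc
S100g: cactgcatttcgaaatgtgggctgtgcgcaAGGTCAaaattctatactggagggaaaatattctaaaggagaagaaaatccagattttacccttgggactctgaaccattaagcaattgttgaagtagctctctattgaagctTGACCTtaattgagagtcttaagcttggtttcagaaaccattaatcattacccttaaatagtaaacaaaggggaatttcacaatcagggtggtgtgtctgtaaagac
Trpm6: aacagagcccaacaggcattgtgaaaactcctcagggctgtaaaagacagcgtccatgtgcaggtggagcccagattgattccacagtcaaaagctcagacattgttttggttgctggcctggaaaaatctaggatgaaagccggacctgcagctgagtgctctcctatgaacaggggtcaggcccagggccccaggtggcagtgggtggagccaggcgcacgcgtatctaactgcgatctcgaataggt
Wnk1: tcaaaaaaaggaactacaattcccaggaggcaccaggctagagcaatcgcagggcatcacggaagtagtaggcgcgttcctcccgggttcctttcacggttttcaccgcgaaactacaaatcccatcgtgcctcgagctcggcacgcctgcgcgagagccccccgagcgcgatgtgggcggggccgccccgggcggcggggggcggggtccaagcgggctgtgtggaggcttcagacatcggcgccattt

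TATAAA was found 32 bases before the start of Slc12a3 and 43 bases before that of Trpv5, and in no other member that has an entry. Of all 32851 promoter stretches of this length, 12.4% held it. These distances hold for the RefSeq start. The GENCODE M21 entry of Trpv5 begins at 41680769, within the stretch shown, so the Trpv5 match lies inside that entry. AGGTCA was found in S100g alone, at 220 bases before the start and, on the other strand, at 107 bases, against 14.0% of all stretches with at least 1 match. None of the 5 stretches held both motifs. Of the 5 stretches shown, Wnk1 had 26 CpG pairs, Trpm6 7, Slc12a3 3, S100g 2 and Trpv5 1, and the median over all stretches was 6. G and C made up 64.0% of the Wnk1 stretch, 61.2% of that of Slc12a3, 54.4% of that of Trpm6, 51.6% of that of Trpv5 and 38.4% of that of S100g, against a median of 52.4%. The table held 9 of the 10 genes, not Calb1.

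Levels were compared between genes on the FPKM scale, which divides by transcript length. S100g was the highest, with 346.6 to 1198 FPKM in fisetin kidneys and 707.9 to 907.0 FPKM in control kidneys. Slc12a3 came next with 77.5 to 357.9 FPKM with fisetin and 169.4 to 340.2 FPKM with the control diet, followed by Wnk1 with a mean of 120.0 ± 19.0 FPKM (SD, n = 6) with fisetin and 122.0 ± 9.79 FPKM (n = 6) in controls. Slc8a1 and Calb1 stood together: the mean difference was 0.05 on the log2 FPKM scale, Slc8a1 was the higher in 7 of 12 libraries, and an exact sign-flip permutation test over the 12 libraries gave an adjusted p = 0.566. Wnk4 followed with means of 30.0 FPKM with fisetin and 34.4 FPKM in controls. The channel genes and the ubiquitin adaptor were much lower, Trpv5 at 6.21 against 6.97 FPKM, Klhl3 at 4.99 against 6.39 FPKM and Trpm6 at 5.03 against 4.33 FPKM. Klhl3 and Trpm6 could not be ordered (higher Klhl3 in 8 of 12 libraries, adjusted p = 0.242 by the same exact test), whereas the other 7 neighbouring pairs had adjusted p between 0.0011 and 0.01. The neighbours were picked by their mean levels in these same libraries, so these p-values are no independent support for the order. One row of counts covers all forms of a gene, so the short kidney form of Wnk1, which lacks most of the kinase domain, is not separated from the long one.

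Pvalb, a defining gene of the early distal convoluted tubule in mouse, was at or near 0 in most libraries, while the other members were well counted in all. Its counts were 5, 2, 9, 3, 4 and 73 in fisetin 1 to 6 and 1, 8, 7, 46, 7 and 61 in control 1 to 6. The gene stood above 10 counts in fisetin 6, control 4 and control 6 alone, which are also the 3 libraries with the highest Slc12a3 CPM and the highest Egf CPM. All 3 belong to batch 2, and the log2 difference of batch 2 over batch 1 was 2.57 ± 0.92 (SE, edgeR without the count filter; adjusted p = 0.831). Control 3 held 15057 counts of Slc12a3 and 7 of Pvalb. Pvalb did not pass the count filter and was left out of the main test, so 9 of the 10 genes were tested. Slc12a3, which marks the same segment, never had fewer than 3077 counts.

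The main comparison asked whether fisetin changed these genes. Values are CPM, read counts scaled to a common library size by TMM, unless another scale is named. With fisetin, 8 of 9 tested members had a negative log2 fold change, and Trpm6 alone a positive one, against 49.8% negative among all 17890 genes tested. None of the 9 passed the threshold over all genes (adjusted p between 0.303 and 0.883, edgeR's quasi-likelihood test with batch as a covariate and Benjamini-Hochberg adjustment), where 0 genes passed in all (0.0%), and the smallest adjusted p of any gene was 0.145. At an unadjusted p under 0.05 there was 1 member, Trpm6, against 14.6% of all genes. It was on the higher side, where 8.23% of all genes lay, and 0 members were on the lower side, with 6.34% of all genes. DESeq2 called 0 of the members and 0.809% of the genes it gave an adjusted p. In whole kidney, fewer cells of a segment and less RNA per cell cannot be told apart.

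**Figure D1:**
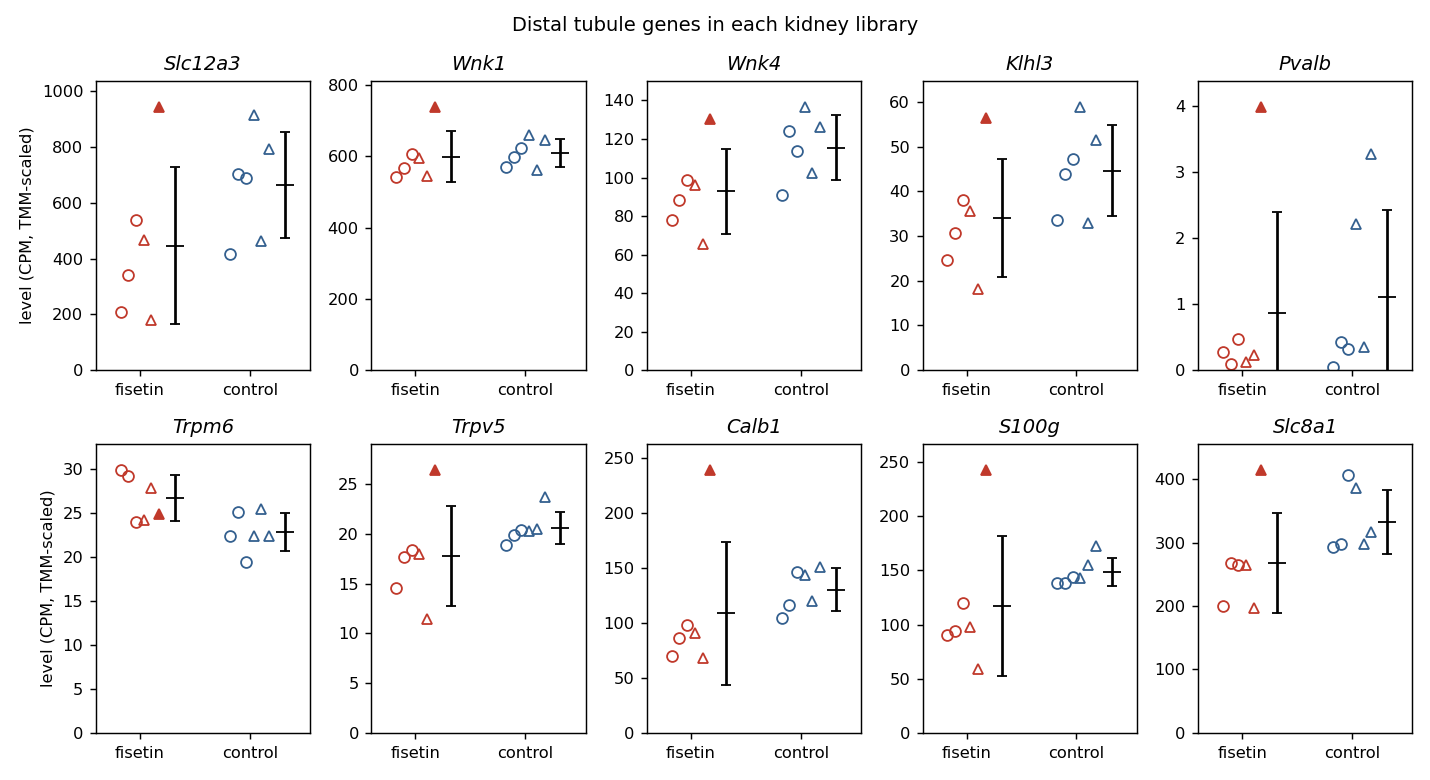
Level of each gene (CPM, TMM-scaled, y axis from 0) in 6 fisetin and 6 control libraries, circles for batch 1 and triangles for batch 2, with the mean and SD at the right of each group (bars that would pass below 0 are cut at 0). The filled triangle is fisetin 6, which lies above all other fisetin libraries in every panel but that of Trpm6.

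Slc12a3, the sodium chloride cotransporter gene on chromosome 8 (94329201 to 94366214, GRCm38, GENCODE M21), varied most of the tested members. It had 208, 343, 540, 465, 179 and 942 CPM in fisetin 1 to 6, against 417, 704, 688, 914, 463 and 794 CPM in control 1 to 6. Fisetin 1, 2 and 5 were below every control library, fisetin 6 was above every one, and the groups overlapped. Fisetin 6 was the highest of all 12 libraries for 7 of the 10 members, against 13.7% of all genes tested, and fisetin 5 the lowest for 7, against 18.4%. The means were 446.2 ± 280.8 CPM with fisetin and 663.5 ± 191.3 CPM in controls (SD, n = 6 each). The log2 fold change was -0.59 ± 0.37 (SE, edgeR). Over the 12 libraries the highest level was 5.27 times the lowest.

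Its regulators had smaller log2 fold changes. Wnk4, on chromosome 11 (101260567 to 101277409), had 65.6, 92.0 and 130.6 CPM as lowest, median and highest value with fisetin, against 90.8, 118.8 and 136.4 CPM in controls. The log2 fold change was -0.32 ± 0.15, and 3 fisetin libraries lay below every control library. Klhl3, on chromosome 13 (58000228 to 58113592), had 18.2, 33.1 and 56.5 CPM with fisetin against 32.8, 45.6 and 58.8 CPM, a log2 fold change of -0.39 ± 0.24, and again 3 fisetin libraries lay below every control library. Wnk1, on chromosome 6 (119923969 to 120038672), varied little, at 541.8, 581.6 and 737.0 CPM with fisetin against 561.2, 610.1 and 658.5 CPM, with a log2 fold change of -0.03 ± 0.08. In all 3 regulators the groups overlapped, and at least 3 fisetin libraries below every control library were seen in 17.3% of all genes.

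The 4 genes of calcium transport shared 1 pattern. Calb1, on chromosome 4 (15881264 to 15908064), had 69.6, 86.1, 98.6, 90.7, 68.0 and 239.1 CPM in fisetin 1 to 6, against 104.5, 116.4, 146.5, 144.1, 119.9 and 151.1 CPM in control 1 to 6. So 5 fisetin libraries lay below every control library and fisetin 6 above every one. S100g, on the X chromosome (162961992 to 162964599), had 90.5, 94.1, 119.8, 97.4, 59.1 and 242.7 CPM in fisetin 1 to 6, while its control values stayed between 138.6 and 172.4 CPM. Again 5 libraries were below all controls and fisetin 6 was above them. Trpv5, on chromosome 6 (41652173 to 41680769), had 11.4, 17.9 and 26.4 CPM as lowest, median and highest value with fisetin against 18.9, 20.4 and 23.7 CPM. Slc8a1, on chromosome 17 (81373105 to 81738377), had 197.2, 264.6 and 414.4 CPM against 292.7, 307.4 and 406.7 CPM. In both, the same 5 fisetin libraries were below every control library and fisetin 6 above every one. Among all genes tested, 2.54% had at least 5 fisetin libraries below every control library, and 0.425% had exactly 5 below and fisetin 6 above every one. This pattern was described after the values were seen.

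With all 12 libraries the log2 fold changes of these 4 genes were small for their errors: -0.30 ± 0.27 for Calb1, -0.35 ± 0.26 for S100g, -0.22 ± 0.15 for Trpv5 and -0.32 ± 0.17 for Slc8a1 (SE, edgeR). Without fisetin 6 they were -0.65 ± 0.13, -0.70 ± 0.15, -0.36 ± 0.12 and -0.48 ± 0.13. Leaving out fisetin 5 moved them the other way, to -0.18, -0.21, -0.10 and -0.23. The adjusted p without fisetin 6 were 0.0571, 0.0615, 0.109 and 0.0806 (edgeR's quasi-likelihood test), which still miss the threshold, while 0.388% of all genes passed. Each library was left out in turn, and fisetin 6 was singled out because it was the highest for these genes. The values without fisetin 6 are therefore no independent support for a diet difference. In the fit without fisetin 6, Slc12a3 stood at -0.92 ± 0.34, Klhl3 at -0.59 ± 0.22 and Wnk4 at -0.43 ± 0.13. At an unadjusted p under 0.05 it held 7 of 9 members on the lower side, against 12.4% of all genes, and Trpm6 on the higher side, against 13.3%. S100g lies opposite to Ctps2 with some overlap, and the sources used here do not state the strand setting of the counting. Ctps2 ran from 29.5 to 34.2 CPM with fisetin and from 31.8 to 33.9 CPM with the control diet. It too had 5 fisetin libraries below every control library, but there fisetin 6 was the lowest and fisetin 5 the one above every control. The part of this overlap in the S100g values was not tested.

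**Figure D2:**
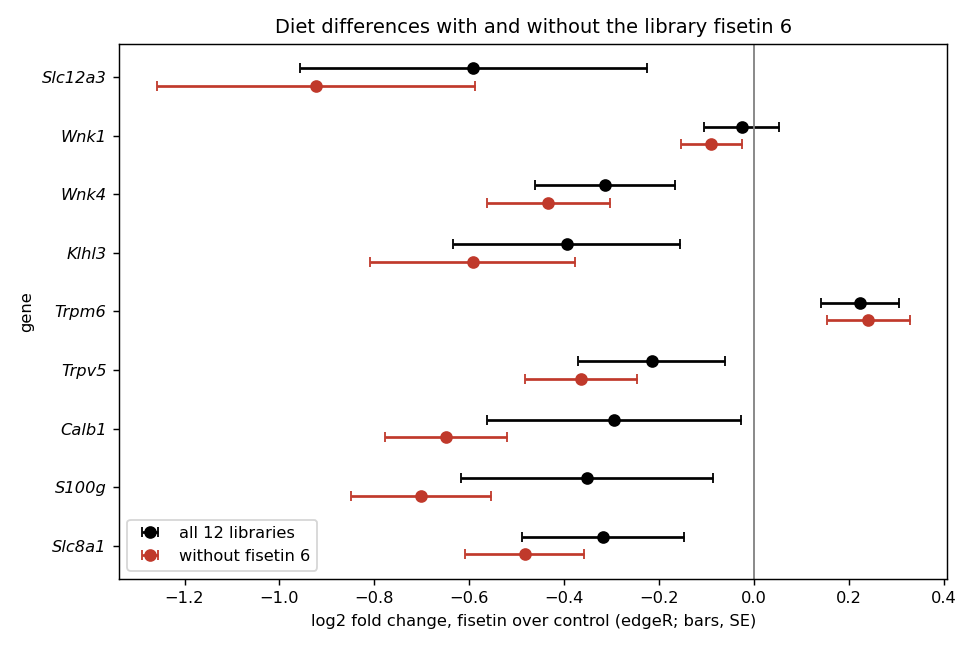
Log2 fold change of fisetin over control for the 9 tested genes (x axis; points, edgeR estimates; bars, SE) with all 12 libraries in black and without fisetin 6 in red. Leaving out fisetin 6 moves Calb1 to -0.65 and S100g to -0.70, and leaves Trpm6 at 0.24. Fisetin 6 was singled out after its values were seen.

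Trpm6, the magnesium channel gene on chromosome 19 (18749983 to 18892511), went the other way. It had 29.87, 29.14, 23.98, 24.14, 27.88 and 24.91 CPM in fisetin 1 to 6, against 22.32, 25.09, 19.47, 22.35, 25.46 and 22.33 CPM in control 1 to 6. All 6 fisetin libraries were above the control mean and 3 above every control library, a count that 17.3% of all genes reached, and the groups overlapped. On the FPKM scale, 3 of the 6 fisetin libraries were above the control mean and 3 below it. The CPM means were 26.7 ± 2.63 CPM with fisetin and 22.8 ± 2.19 CPM with the control diet (SD, n = 6 each). The log2 fold change was 0.22 ± 0.08 (edgeR; unadjusted p = 0.0181, adjusted p = 0.303), 0.31 ± 0.12 in batch 1 and 0.14 ± 0.10 in batch 2. It was positive in every setting tried, from 0.14 to 0.31.

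The diet differences were not shown to differ between the batches. The interaction of diet with batch had 0 of 9 members past the threshold and 0 at an unadjusted p under 0.05 (edgeR; 2.10% of all genes at that level), and DESeq2 called 0 members. For Slc12a3 the log2 fold change was -0.73 in batch 1 and -0.45 in batch 2, for S100g -0.47 and -0.24, and for Calb1 -0.53 and -0.06. Batch 2 holds fisetin 6, and its fisetin SD for Calb1 was 92.9 CPM against 14.5 CPM for fisetin in batch 1. The batch term itself called 0 of the 9 tested members, Pvalb not among them (edgeR, adjusted p between 0.892 and 0.963).

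A fit that weights libraries by their estimated quality (limma-voom) gave a different count. It called 6 of 9 members, against 13.9% of all genes. Of these, 5 were on the lower side, against 7.13% of all genes. Lower with fisetin were Slc12a3 (-0.91 ± 0.25, adjusted p = 0.037), Wnk4 (-0.40 ± 0.10, adjusted p = 0.0295), Klhl3 (-0.53 ± 0.16, adjusted p = 0.0438), Calb1 (-0.54 ± 0.15, adjusted p = 0.0397) and S100g (-0.57 ± 0.15, adjusted p = 0.0332), all limma log2 fold changes with their SE. Trpm6 was higher (0.26 ± 0.08, adjusted p = 0.0473). Such calls were not particular to the members. Of the cell type markers described below, the same fit called 5 of 8 proximal tubule and 6 of 7 principal and connecting tubule markers lower. It called 1 of 6 intercalated cell markers lower, 0 of 5 thick ascending limb markers, and 4 of 7 immune cell markers higher. The fit gave fisetin 6 the smallest weight of all libraries, 0.36, fisetin 5 the next smallest, 0.41, and fisetin 2 the largest, 2.97. These weights reflect how far the values of a library lie from the fit, and are no measure of RNA quality.

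**Figure D3:**
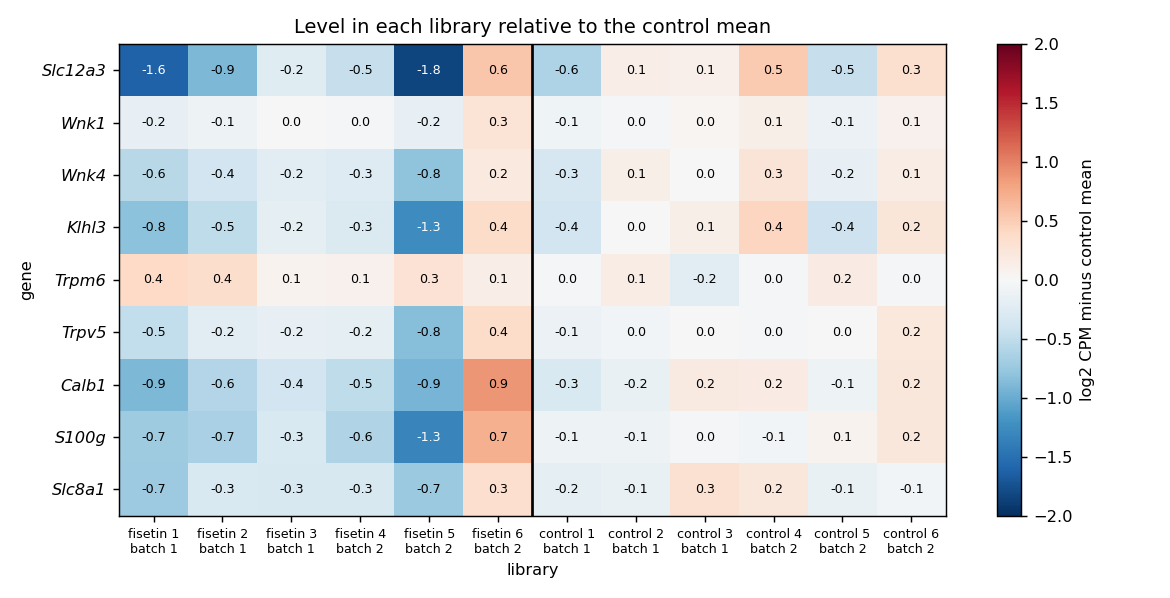
Each cell is the log2 CPM of a gene (rows) in a library (columns, fisetin left of the line and control right) minus the control mean of that gene; Pvalb is left out for its low counts. Fisetin 5 and fisetin 1 hold the lowest values of Slc12a3, and fisetin 6 is above the control mean in every row.

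The genes varied together from library to library, apart from Trpm6. Against Slc12a3 over 12 libraries on the log2 CPM scale, Klhl3 had r = 0.984 (Spearman rho = 0.979) and Wnk4 r = 0.979 (rho = 0.972), each with a permutation p of 1e-05 for both measures, the smallest that 100000 resamples can give. Both relations held within each batch (r from 0.951 to 0.997, n = 6) and without the 2 libraries farthest from the median of Slc12a3, fisetin 1 and fisetin 5 (r = 0.982 and 0.972). Wnk1 followed with r = 0.860 (rho = 0.951, permutation p = 0.00038 and 3e-05) although it spanned only 1.36-fold. The permutations for r and rho shuffled all 12 libraries across diet and batch. A diet or batch difference shared by both genes therefore counts toward these relations. All 9 relations with Slc12a3 had an adjusted permutation p for r of at most 0.0166, but many genes varied with Slc12a3 in these libraries. An r of either sign at least as far from 0 as that of Klhl3 was seen in 0.162% of 17889 tested genes, as that of Wnk4 in 0.324%, as that of Wnk1 in 15.4% and as that of Pvalb, the smallest, in 38.8%.

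For the calcium genes the relation with Slc12a3 was also positive, with higher r among the fisetin libraries than among the controls. S100g had r = 0.864 with Slc12a3 over all libraries (rho = 0.818, permutation p = 8e-05 and 0.00174), with r = 0.915 within the fisetin group and r = 0.193 within the controls (n = 6 each). Trpv5 had r = 0.910 overall (rho = 0.818, permutation p = 2e-05 and 0.00174), 0.959 within fisetin and 0.506 within controls. Calb1 and Slc8a1 stood at 0.899 and 0.949 within fisetin and 0.803 and 0.613 within controls, and had r = 0.896 (rho = 0.881, permutation p = 6e-05 and 0.00026) and r = 0.910 (rho = 0.853, permutation p = 5e-05 and 0.0007) overall. Between 8.18% (Trpv5) and 14.9% (S100g) of tested genes had an r at least as far from 0 over the 12 libraries. Without fisetin 1 and fisetin 5, r was lower, at 0.731 for S100g, 0.764 for Trpv5, 0.843 for Calb1 and 0.780 for Slc8a1. Slc12a3 itself spanned a wider range with fisetin, 179 to 942 CPM, than with the control diet, 417 to 914 CPM. Whether r differs between the diets was not tested.

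Trpm6 had a negative relation with Slc12a3, r = -0.70 (permutation p = 0.0114, adjusted p = 0.0128), with rho = -0.55 (permutation p = 0.0702). An r at least this far from 0 was seen in 36.5% of tested genes. For Trpm6 it was -0.46 without fisetin 1 and fisetin 5, so it rests in part on those libraries, and -0.75 and -0.83 in batches 1 and 2. Within the fisetin group r was -0.75, and within the controls it was weaker, at -0.27 (n = 6 each). Pvalb had r = 0.676 (rho = 0.818, permutation p = 0.0166 and 0.00194), from counts mostly under 10.

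**Figure D4:**
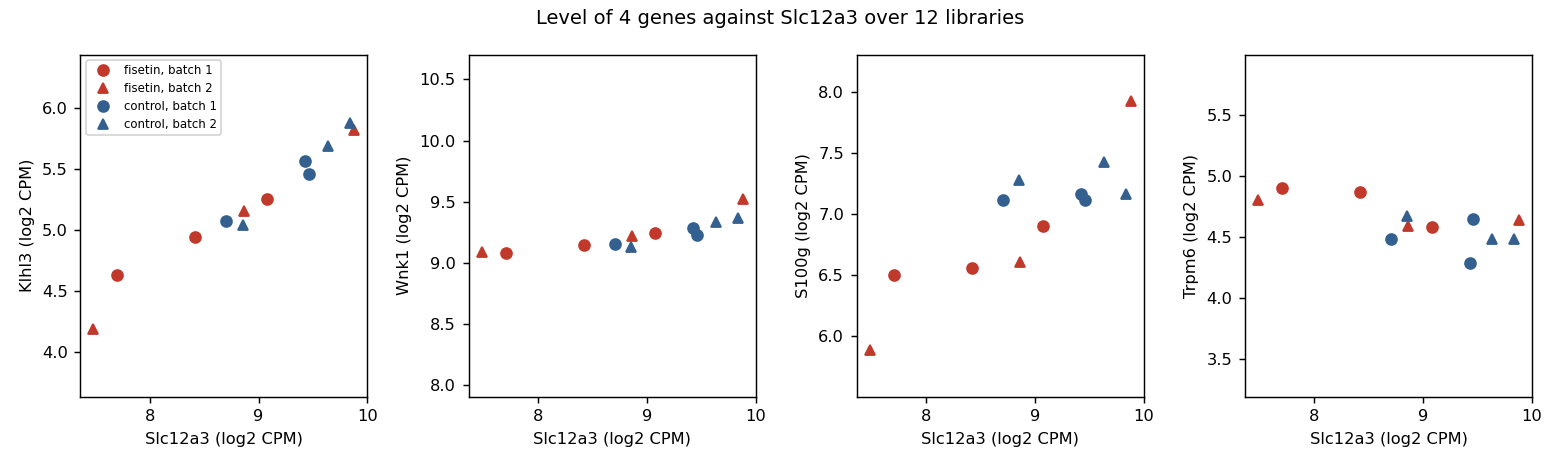
Log2 CPM of Klhl3, Wnk1, S100g and Trpm6 (y axes, all spanning the same range) against that of Slc12a3 (x axis) in 12 libraries, red for fisetin and blue for control, circles for batch 1 and triangles for batch 2. Klhl3 follows Slc12a3 closely (r = 0.984), Wnk1 with a shallow slope, and Trpm6 in the other direction (r = -0.70).

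Set against Slc12a3 within each library, no member showed a diet difference past the threshold. The log2 ratio of Trpm6 to Slc12a3 was higher with fisetin by 0.97 (exact permutation p = 0.08, two-sided, over 400 arrangements of diet within batches; adjusted p = 0.219 over 9 ratios; above the control mean in 5 of 6 fisetin libraries). That of Wnk1 was higher by 0.72 (exact p = 0.07, adjusted p = 0.219; 5 of 6 libraries). Both depended on single libraries: the Trpm6 ratio was 0.63 without fisetin 5 and 1.26 without fisetin 6, and the Wnk1 ratio 0.45 and 0.94. The other 7 ratios were higher by 0.21 to 0.49 with exact p between 0.095 and 0.755. The smallest p this design allows is 0.005.

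With batch and diet means removed, the 5 genes whose log2 CPM was most like that of Slc12a3 over the 12 libraries, among 11457 others and leaving out the members, were Akr7a5, an aldo-keto reductase gene, B3gat2, a glucuronyltransferase gene, Cbs, of the transsulfuration pathway, Fam151a and Proc, the protein C gene, each with r = 0.993. Klhl3 came 43rd in that order and Wnk4 112th. S100g came 2082nd and Trpm6, with r = -0.57, 8749th.

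Markers of other kidney cells were summed in each library, and none was at 0 in all of them. No marker passed the adjusted threshold in the main fit. At an unadjusted p under 0.05 (edgeR), 6.34% of all genes were lower with fisetin and 8.23% higher. The summed level of 8 proximal tubule markers ran from 5107 to 12597 CPM with fisetin and from 7471 to 13118 CPM with the control diet, with 8 of 8 negative and 1 at an unadjusted p under 0.05. That of 5 thick ascending limb markers ran from 2295 to 3720 CPM and from 2236 to 4406 CPM, with 5 of 5 negative and 0 at that level. Principal and connecting tubule markers (7) ran from 179.9 to 385.8 CPM with fisetin and from 373.7 to 533.8 CPM with the control diet, with 7 of 7 lower at an unadjusted p under 0.05. These cells are partly the site of the calcium genes, and fisetin 6 was the only fisetin library whose sum exceeded that of the lowest control library. Intercalated cell markers (6) ran from 97.7 to 205.6 CPM and from 132.0 to 200.2 CPM. Immune cell markers (7) ran from 772.3 to 1865 CPM with fisetin, lowest in fisetin 6 and highest in fisetin 5, and from 791.3 to 1317 CPM with the control diet, with 7 of 7 positive and 3 at an unadjusted p under 0.05. Injured tubule markers (4) ran from 239.1 CPM in fisetin 6 to 522.8 CPM with fisetin, and from 336.1 to 525.4 CPM with the control diet. So the library with the highest Slc12a3, Calb1 and S100g had the lowest immune and injured tubule sums. That library, fisetin 6, also had the lowest fibroblast, skeletal muscle and adrenal sums and the highest intercalated cell, podocyte and endothelial sums. The highest proximal tubule, thick ascending limb and principal cell sums were in control libraries. Without fisetin 6, 7 of 8 proximal tubule and 7 of 7 principal and connecting tubule markers were lower at an unadjusted p under 0.05, as were 3 of 5 podocyte, 3 of 5 endothelial and 2 of 6 intercalated cell markers, against 12.4% of all genes. In the same fit 6 of 7 immune and 2 of 4 injured tubule markers were higher, against 13.3% of all genes. Their part in the distal tubule differences was not tested. Podocyte markers (5) ran from 467.5 to 734.6 CPM and from 582.4 to 692.7 CPM, endothelial markers (5) from 282.7 to 387.2 CPM and from 300.3 to 341.6 CPM, and fibroblast markers (5) from 1086 to 1650 CPM and from 1183 to 1789 CPM, with fisetin given before control. Skeletal muscle markers (4) were at or near 0, at most 1.13 CPM in sum with fisetin and 1.66 CPM with the control diet, and adrenal markers (3) at most 2.44 and 1.56 CPM.

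Genes that act beside the members were described from a list of 36, of which 35 were tested. With fisetin 28 had negative and 7 positive log2 fold changes, with a median of -0.13 against 0.00081 for all genes. Neither edgeR nor DESeq2 called any of them, and at an unadjusted p under 0.05 edgeR had 0 and DESeq2 had 1. The kinase genes that link WNK to NCC had close levels: Stk39 (SPAK) had 34.9 ± 1.47 CPM with fisetin against 37.0 ± 2.59 CPM (SD, n = 6 each), and Oxsr1 (OSR1) 67.7 ± 3.78 against 67.5 ± 3.87 CPM. Cul3, the cullin that works with KLHL3, had 118.7 ± 11.3 against 116.3 ± 9.68 CPM. Basolateral partners of salt transport had log2 fold changes of -0.29 ± 0.15 for Fxyd2, a sodium pump subunit, and -0.36 ± 0.18 for Bsnd, the chloride channel subunit barttin (SE, edgeR).

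On the calcium side Casr, the calcium-sensing receptor gene, stood at -0.21 ± 0.10, and Trpv6, the close relative and neighbour of Trpv5, had only 3.40 ± 0.64 CPM with fisetin against 3.62 ± 1.24 CPM. The pair share sequence, so reads may be split between them. On the magnesium side Egf, whose product acts on TRPM6, had 109.0, 250.8 and 685.1 CPM as lowest, median and highest value with fisetin against 150.9, 403.6 and 636.7 CPM. Fisetin 6 was the highest and fisetin 5 the lowest, as for Slc12a3, and the groups overlapped. Trpm7, a widely expressed relative of Trpm6, had 168.2 ± 20.7 against 169.1 ± 16.4 CPM. Slc41a1, a magnesium transporter gene, was at 0.19 ± 0.09, and Pcbd1, a pterin dehydratase gene, at -0.39 ± 0.18.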

How the data were processed

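Per the submitters' processing notes, fastp, STAR, featureCounts and DESeq2 were used with GRCm38 and mm10. The sources state neither versions nor the annotation release. The authors' deposited table holds estimated counts, TPM (scaled to a fixed total) and FPKM (per length and depth) for each library, per the file headers. Of the count values above 0, 13.91% were not whole (tolerance 1e-06), and all were rounded. All 36 value columns matched a sample by name. Diet came from the titles and batch from its label; library numbers follow accession order and pair nothing.

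Genes passing filterByExpr (minimum count 10) were scaled by TMM and tested in R 4.3.3 with edgeR 4.0.16 (robust quasi-likelihood, batch and diet, two-sided, threshold 0.05 after Benjamini-Hochberg adjustment). SEs come from the fold change and F. DESeq2 1.42.0, limma 3.58.1 (voom with quality weights; log2(TPM + 1) for genes with a mean of at least 0.1 TPM), other scaling, no filter, no batch term, single batches and leaving out each library were alternatives. Log2 CPM for correlations and ratios used a prior count of 2; likeness used genes averaging at least 3 on that scale. The count tests were tested on simulated counts with known changes. Members and lists were chosen with earlier results of these data known. All 10 members are named; beside them, the 6 listed genes with the smallest p (1 of them is not reported here), 6 fixed ones, and the 5 most like Slc12a3. Ctps2 was added after its values were seen.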

Additional observations from a re-analysis of the deposited data

Results flagged for a closer look

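Among 20 sets of 6 values (10 genes in each diet), 6 held a library far from the others by Dixon's criterion for 6 values; chance alone would give about 1 in 20. Fisetin 6 accounted for 5 of them, as the highest fisetin library each time: Wnk1 at 737.0 CPM, Pvalb at 3.98 CPM, Calb1 at 239.1 CPM, S100g at 242.7 CPM and Slc8a1 at 414.4 CPM. The other was control 6, the highest control library for Trpv5 at 23.7 CPM. The genes share these libraries, so these values are not independent.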

How the results depend on the processing

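Across the alternatives tried for the diet comparison, the number of members with a negative log2 fold change stayed between 7 and 9 of the 9 or 10 tested. No member was called under any of them except with limma-voom and quality weights, which called 6. Members at an unadjusted p under 0.05 numbered 1 with all libraries (14.6% of all genes), 2 by DESeq2 (9.98%), 8 with limma-voom (34.8%), 5 in batch 1 alone (7.63%), 0 in batch 2 alone (5.17%), and 1 to 8 when each library was left out (8 without fisetin 6, with 25.7% of all genes). Genes called over the whole table numbered 0 in the main test, 147 by DESeq2, 2488 by limma-voom, 1 in batch 1 alone and 0 to 70 when each library was left out (70 without fisetin 6, 1 without fisetin 4). The log2 fold change of Wnk1 changed sign in batch 2 alone (0.015), on log2(TPM + 1) (0.0023) and without fisetin 5 (0.011), with -0.091 to 0.011 over the libraries left out; the ratio of Pvalb to Slc12a3 did so without fisetin 6 (-0.16) and without control 5 (-0.082), with -0.16 to 0.64 over the libraries left out. The cause was not tested. Leaving out each library moved the log2 fold change of Slc12a3 between -0.92 and -0.42, of Calb1 between -0.65 and -0.18, of S100g between -0.70 and -0.21, of Trpv5 between -0.36 and -0.10, of Slc8a1 between -0.48 and -0.23, of Klhl3 between -0.59 and -0.25 and of Wnk4 between -0.43 and -0.22, with fisetin 6 or fisetin 5 left out at the ends, except control 3 for the weakest Slc8a1 value. No ratio to Slc12a3 passed the threshold in any setting. The order of levels on TPM is no separate check, because within a library TPM and FPKM differ by a constant factor. Of the listed neighbours, 17 were lower and 2 higher at an unadjusted p under 0.05 with limma-voom, against 17.8% and 17.0% of all genes, and 6 and 1 past the adjusted threshold, against 7.13% and 6.78%. Without fisetin 6 they numbered 7 and 2, against 12.4% and 13.3%. No paired analysis was possible because library numbers follow accession order. Pvalb, with 1 to 73 counts, limits any statement on its diet difference (log2 fold change -0.28 ± 0.89 without the count filter).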
